A study of Mus musculus with 16 samples.

Results

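Macrophages are often described along an axis from classical activation, in which inducible nitric oxide synthase makes nitric oxide from arginine, to alternative activation, in which arginase consumes it. The 10 genes described here are read along that axis or as mediators of immune suppression: Arg1, Arg2, Nos2, Retnla, Chil3, Il10, Tgfb1, Tgfbi, Vegfa and Il10ra. They were chosen by name and not by a rule on their counts, but with earlier results of these data known. The deposited table held all of them among its 55421 gene rows. All 10 passed the filter on low counts that left 21085 genes for testing.

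RNA was sequenced from cells sorted as lymph node sinus macrophages. They came from C57B/6 male mice that carried a MOC2 tumor, a chemically induced squamous cell carcinoma model. The flank had received 500000 tumor cells intradermally, and nodes were taken after 2 weeks. Sub-capsular sinus macrophages (SSMs) were sorted as CD11c- cells of low side scatter and medullary sinus macrophages (MSMs) as CD11c+ cells of high side scatter, in both cases among CD45+ CD3- B220- Ly6G- CD11b+ CD169+ cells. Both subsets came from tumor-draining nodes (tdLN) and non-draining nodes (ndLN), which gave 4 groups of 2 libraries: SSMs from ndLN, SSMs from tdLN, MSMs from ndLN and MSMs from tdLN. Each pool joined nodes of 2 mice, 2 tdLN or 6 ndLN (contralateral inguinal, axillary and brachial), and about 10000 cells were sorted per group. Both kinds of node came from the same tumor-bearing mice, so no group stands for a mouse without a tumor, and the node sites differ as well as the drainage. Pools 1 and 2 are the only replicates, and the label of the SSM library from tdLN taken as pool 1 carries no number. With group and pool in 1 model of all 8 libraries, p-values measure the spread that remains between libraries, shared over the 4 groups.

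As background, arginase 1 (Arg1) and the mitochondrial arginase 2 (Arg2) split arginine into ornithine and urea, and nitric oxide synthase 2 (Nos2) competes for the same amino acid. Retnla and Chil3 encode the secreted proteins RELM-alpha and Ym1, which IL-4 and IL-13 raise in mouse macrophages, and Chil3 is also made by neutrophils and their precursors. IL-10 acts through a receptor whose ligand-binding chain is Il10ra and restrains inflammatory cytokine production. Tgfb1 encodes the latent cytokine TGF-beta 1, Tgfbi a matrix protein first found as a TGF-beta-induced transcript, and Vegfa the growth factor that drives blood vessel growth.

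The promoters of Chil3, Tgfb1, Tgfbi and Vegfa are shown because these are the members with a RefSeq promoter window that were called different between SSMs and MSMs in at least 1 kind of node. RefSeq windows on GRCm38.p6, from 250 bases before to 50 bases after the start site, exist in the table used here for 5 of the 10 members, the fifth being Retnla. Capitals mark matches to any of 7 motif families searched on both strands: the hypoxia-inducible factor core (ACGTG or GCGTG), AP-1 (TGANTCA), STAT6 (TTC and GAA with 4 bases between them), SMAD (CAGACA), Sp1 (GGGCGG), PU.1 (GAGGAA) and the TATA box (TATAAA).
Chil3 promoter, minus strand, chr3:106167515-106167814: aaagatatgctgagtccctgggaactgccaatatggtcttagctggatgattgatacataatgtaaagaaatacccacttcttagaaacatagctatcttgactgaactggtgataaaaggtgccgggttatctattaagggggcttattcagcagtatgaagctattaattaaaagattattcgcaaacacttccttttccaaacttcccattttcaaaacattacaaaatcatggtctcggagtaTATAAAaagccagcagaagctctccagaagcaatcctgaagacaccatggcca
Tgfb1 promoter, plus strand, chr7:25686752-25687051: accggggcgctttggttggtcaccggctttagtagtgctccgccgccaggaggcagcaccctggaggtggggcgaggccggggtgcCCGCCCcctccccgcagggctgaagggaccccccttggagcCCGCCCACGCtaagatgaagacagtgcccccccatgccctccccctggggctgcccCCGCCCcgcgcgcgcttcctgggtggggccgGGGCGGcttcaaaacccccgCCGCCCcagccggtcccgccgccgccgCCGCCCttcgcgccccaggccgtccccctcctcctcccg
Tgfbi promoter, plus strand, chr13:56609336-56609635: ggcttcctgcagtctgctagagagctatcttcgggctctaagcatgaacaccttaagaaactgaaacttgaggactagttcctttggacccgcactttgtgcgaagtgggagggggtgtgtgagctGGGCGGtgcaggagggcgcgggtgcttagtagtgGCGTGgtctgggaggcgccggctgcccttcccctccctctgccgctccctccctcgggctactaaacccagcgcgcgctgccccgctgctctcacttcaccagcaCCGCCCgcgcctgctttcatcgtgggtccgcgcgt
Vegfa promoter, first of 2 windows, minus strand, chr17:46032328-46032627: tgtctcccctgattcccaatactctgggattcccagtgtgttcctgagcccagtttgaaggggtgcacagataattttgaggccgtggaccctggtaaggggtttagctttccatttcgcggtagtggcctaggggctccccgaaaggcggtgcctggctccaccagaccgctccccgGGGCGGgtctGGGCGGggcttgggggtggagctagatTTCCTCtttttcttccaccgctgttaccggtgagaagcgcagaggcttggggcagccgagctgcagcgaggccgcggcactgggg

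The 4 windows differ in base composition. That of Chil3 held 38.7% G and C and a single match, a TATA box, a motif present in 13.6% of the 32851 RefSeq windows. The windows of Tgfb1, Tgfbi and Vegfa held 77%, 63.3% and 62% G and C, against a median of 52.7% over all windows. They held 6, 2 and 2 Sp1 matches, a motif found in 35.7% of windows. Tgfb1 and Tgfbi each held 1 match to the hypoxia-inducible factor core, found in 43.8% of windows, and in Tgfb1 it overlaps an Sp1 match. No such match lay in the first Vegfa window, while the second, at an internal start site (chr17:46025114-46025413), held 2. The Vegfa window printed above also held 1 PU.1 match, a motif in 28.3% of windows. In the Retnla window a STAT6 match, present in 6.95% of windows, began at -145 from the start site. No AP-1 match, present in 7.81% of windows, lay in any of these windows, and SMAD matches, in 21% of windows, lay only in the second Vegfa window. A match is a description of letters and not of binding.

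The libraries held between 42972328 and 48130352 reads. Counts below are normalized to the scale of 1 lane, with each value given for pool 1 and then pool 2, and a group is summarized as mean ± SD with n = 2. A gene is called here when its adjusted p in edgeR's quasi-likelihood test (Benjamini-Hochberg over all genes tested) was below 0.01 and its mean over the 8 libraries was above 100 normalized counts. Of the 10 members 7 were above that mean. Arg1, with a mean of 62.1, Nos2, with 8.18, and Il10, with 89.9, were below it and could not be called whatever their p.

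Markers of other cells moved with the groups in this sort. Siglec1, which encodes CD169, the protein used to gate both subsets, was at 266 ± 106 normalized counts in SSMs and 27.3 ± 13.3 in MSMs of ndLN, and at 1459 ± 174 and 131 ± 5.22 in tdLN. The summed level of 9 sinus macrophage markers lay at 344270 and 503765 normalized counts in the libraries of tumor-draining SSMs, and between 105513 and 205762 elsewhere. Most of that sum was Lyz2, at means of 146605 in SSMs and 97488 in MSMs of ndLN, and 364056 and 91911 in tdLN. In ndLN 3 of the 9 markers were called higher in SSMs and 2 lower, Cd68 (log2 fold change -1.06) and Mertk (6.70 against 73.6 normalized counts). In tdLN 4 were called higher and none lower. The 7 dendritic cell markers summed to between 89222 and 97647 in MSMs and between 19232 and 49528 in SSMs. For 9 neutrophil and monocyte markers the sums were 18691 to 27604 in SSMs from ndLN, 57588 to 62276 in SSMs from tdLN and 4138 to 7007 in MSMs, with Ly6g at 0 in every group but SSMs from tdLN. The 9 mast cell and basophil markers summed to between 40717 and 61857 in SSMs from ndLN and to at most 14056 elsewhere, with Ms4a2 at 0 in MSMs of both nodes. In MSMs most of that sum was Kit, at a mean of 13781 in ndLN and 7264 in tdLN, and of the 9 markers 6 were called higher in SSMs of each node and 1, Kit in tdLN, lower. Cpa3, a mast cell protease, was at a mean of 9859 in SSMs from ndLN and 1686 in SSMs from tdLN, and at no more than 4.55 in MSMs of either node. Sums of 8 ILC2 and 7 NK and cytotoxic markers ran from 13743 to 44291 and from 41884 to 70109 in SSMs, and from 1235 to 2382 and from 430 to 2477 in MSMs. Of 8 T cell markers 7 were called higher in SSMs of ndLN and 6 in tdLN, with medians of 2.72 and 4.47 on the log2 scale, and Cd8a alone was called lower in each. Cd3e was at a mean of 3319 in SSMs and 323 in MSMs of ndLN, and at 1799 and 58.6 in tdLN. The sum of that list reached 39887 in SSMs from ndLN and at most 18733 in the other groups. In MSMs Cd8a made up most of it, at 11197 in ndLN and 8981 in tdLN. The dendritic cell markers Flt3, Xcr1 and Clec9a were at means of 17205, 16412 and 4549 in MSMs from ndLN. In MSMs from tdLN they were at 15731, 15615 and 3514. Of the 7 dendritic cell markers none was called higher in SSMs, and 5 in ndLN and 7 in tdLN were called lower. The source of the Cd8a reads was not tested. B cell markers (7 genes) lay between 4717 and 7758 but for 33401 in a library of MSMs from ndLN. The 5 eosinophil and 6 lymphatic endothelial markers did not exceed 2323 and 1845. Elane and Cxcr2 were also at 0 in MSMs from ndLN, Fcer1a in MSMs from tdLN, Epx in SSMs from ndLN and Il5ra in MSMs from tdLN. Among the ILC2 markers Il5 was at 0 in MSMs from ndLN and Il13 in MSMs from tdLN, and among the endothelial markers Lyve1 in SSMs from ndLN and Prox1 in MSMs from ndLN. The part of these cells in the member genes' values was not tested, and in sorted bulk RNA fewer cells of a type and less RNA per cell cannot be told apart.

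**Figure D1:**
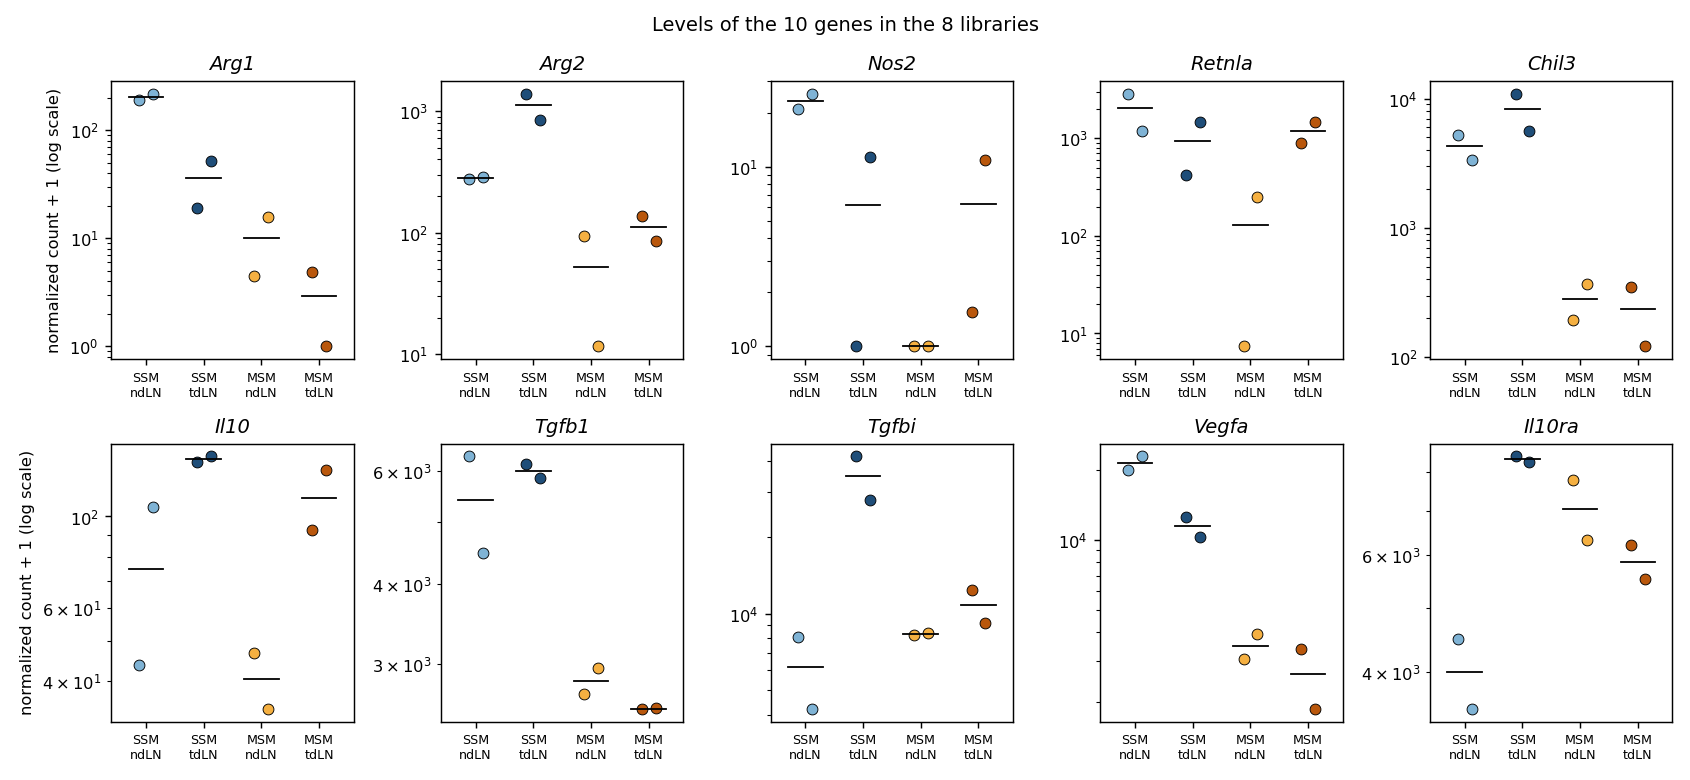
Normalized counts plus 1 (log axis, range set per gene) of the 10 genes in the 8 libraries. Points are libraries, pool 1 on the left of each pair, and lines are group means. For Arg1, Arg2, Chil3, Tgfb1 and Vegfa all 4 SSM libraries lie above all 4 MSM libraries.

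Across both kinds of node, 5 of the 10 members, Arg1, Arg2, Chil3, Tgfb1 and Vegfa, had all 4 SSM libraries above all 4 MSM libraries. Of all genes tested 13.8% had this order. In ndLN, 4 members (Arg2, Chil3, Tgfb1 and Vegfa) were called higher in SSMs, where 6.01% of all genes were, and 1 (Il10ra) was called lower, where 6.06% of all genes were. In tdLN, 5 members (Arg2, Chil3, Tgfb1, Tgfbi and Vegfa) were called higher in SSMs, against 5.16% of all genes, and none was called lower, against 3.52%. The median log2 fold change over the 10 members was 2.60 in ndLN and 1.45 in tdLN, beside 0.09 and 0.02 over all genes tested. Between nodes, 2 members (Tgfbi and Il10ra) were called higher in SSMs from tdLN, where 1.98% of all genes were, and none was called lower, where 1.05% were. The median of the members was 0.54 there, beside -0.04 over all genes. In MSMs no member was called between nodes, where 0.0237% of all genes were, and the median was 0.10 beside 0.01. These shares are of all 21085 genes tested, but only the 9988 over the mean cut-off could be called, as could 7 of the 10 members. Among the 9988, 1267 were called higher and 1277 lower in SSMs of ndLN, and 1089 and 743 in tdLN. Between nodes in SSMs the counts were 418 and 221.

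**Figure D2:**
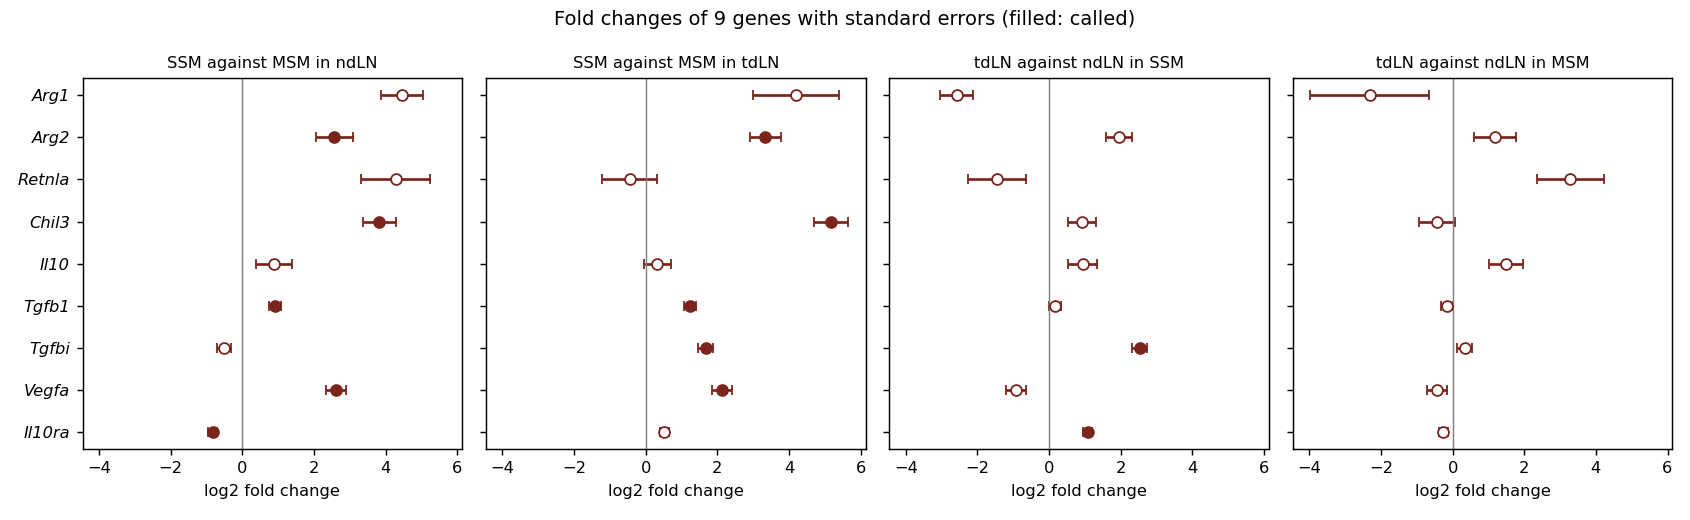
Log2 fold changes of 9 of the genes with their standard errors in the 4 comparisons (edgeR, 8 libraries), where positive values are higher in the group named first. Filled points were called, and Nos2 is left out because it was at 0 in MSMs from ndLN.

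Arginine is the shared substrate of the first 3 genes, and their levels were unlike. The Arg1 gene (chr10:24915221-24927484, minus strand, mm10) was at 189 and 216 normalized counts in SSMs from ndLN, 18.2 and 51.3 in SSMs from tdLN, 3.47 and 14.6 in MSMs from ndLN, and 3.83 and 0 in MSMs from tdLN. The SSMs from ndLN stood above all other libraries, and the SSM and MSM groups did not overlap in either node. The ILC2 marker sums stood in the same order of groups. They were 35486 to 44291 in SSMs from ndLN, 13743 to 15930 in SSMs from tdLN, 1971 to 2382 in MSMs from ndLN and 1235 to 1620 in MSMs from tdLN. Sinus macrophage sums and neutrophil and monocyte sums did not, and were highest in SSMs from tdLN. The part of any of these cells in the Arg1 values was not tested. On the log2 scale Arg1 was higher in SSMs by 4.46 (SE 0.60, adjusted p = 0.000716 in edgeR) in ndLN and by 4.20 (SE 1.20, adjusted p = 0.0424) in tdLN. Within SSMs it was lower in tdLN in both pools, with a log2 fold change of -2.58 (SE 0.46, adjusted p = 0.00958 in edgeR). The ndLN difference between subsets and the node difference in SSMs passed the p-value cut-off but not the cut-off on the mean count. Without each library in turn the node difference ran from -3.33 to -2.12 with adjusted p from 0.0224 to 0.167, so it passed in none of the 8 fits. The ndLN difference between subsets then ran from 4.01 to 5.62 and missed the p-value cut-off without pool 1 or pool 2 of MSMs from ndLN (adjusted p = 0.0142 and 0.0133). The log2 difference in tdLN was 2.84 without pool 2 of MSMs from tdLN, and without pool 1 of that group the only library left is at 0, which gives no fold.

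Arg2 (chr12:79130777-79156301, plus strand) was highest in SSMs from tdLN. Its normalized counts were 273 and 284 in SSMs from ndLN, 1388 and 850 in SSMs from tdLN, 92.1 and 10.6 in MSMs from ndLN, and 136 and 84 in MSMs from tdLN. Every SSM library held more Arg2 than every MSM library, and in SSMs both tdLN libraries stood above both ndLN libraries. The log2 fold change between SSMs and MSMs was 3.34 (SE 0.42, adjusted p = 0.00159 in edgeR) in tdLN. In ndLN it was 2.57 (SE 0.52, adjusted p = 0.00979 in edgeR), a call that stood just inside the cut-off. It was lost in 7 of 8 fits that left out 1 library, all but that without pool 1 of MSMs from ndLN, where the log2 fold change was 4.50, against 1.82 without pool 2 of that group. In tdLN the call was lost without any 1 of the 4 tdLN libraries (adjusted p between 0.0210 and 0.0310), while the log2 fold change stayed between 3.32 and 3.38. The difference between nodes in SSMs, at 1.95 (SE 0.37), had an adjusted p of 0.0188 in edgeR and was not called.

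Reads of Arg2 can be shared with its neighbours, since its exons overlap those of Vti1b and Gm48780 on the other strand and the strand setting of the counting is not given in the sources used here. Of its 50-base exon windows 21.2% occur in another gene, mostly Vti1b. Vti1b itself, a vesicle fusion protein, was at 1516 ± 51.7 in SSMs and 2383 ± 97.8 in MSMs of ndLN, and at 1787 ± 69.3 and 2505 ± 179 in tdLN. Its means were lower in SSMs, where those of Arg2 were higher, and the difference was not called (adjusted p = 0.0124 in ndLN and 0.0523 in tdLN, edgeR). Per kilobase of exon, the mean level of Arg2 exceeded that of Arg1 in SSMs of both nodes, at 195 against 91 normalized counts per kb in ndLN and 784 against 15.6 in tdLN.

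Nos2 (chr11:78920787-78960254, plus strand) was close to the detection limit. Its raw counts were 48 and 54 in SSMs from ndLN, 0 and 20 in SSMs from tdLN, 0 and 0 in MSMs from ndLN, and 1 and 20 in MSMs from tdLN. Only SSMs from ndLN carried it in both pools above the floor of 3 counts. Set against that floor in each MSM library, the ndLN level was at least 13.7-fold higher in SSMs. Its adjusted p was 0.0433 in edgeR, and in the other 3 comparisons it was 0.257 or above.

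Of the other 16 genes of arginine transport and polyamine synthesis that were listed, 15 were tested. In ndLN 1 was called higher and 3 lower in SSMs, in tdLN 1 and 1, and between nodes in SSMs 1 and 1, beside the shares of all genes given above. Without 1 library these totals ran from 1, without pool 2 of MSMs, to 4 in ndLN, from 0, without pool 1 of SSMs or either pool of MSMs from tdLN, to 3 in tdLN, and from 0 to 2 between nodes, with 0 without pool 2 of SSMs from ndLN or either pool of SSMs from tdLN. Odc1, ornithine decarboxylase, which takes the product of arginase to putrescine, was at 65230 ± 7881 normalized counts in SSMs and 22873 ± 950 in MSMs of ndLN (log2 fold change 1.51, SE 0.13, adjusted p = 0.000166 in edgeR). It was also called higher in SSMs of tdLN, by 1.20 on the log2 scale (SE 0.12), and lower in SSMs from tdLN than from ndLN, with a log2 fold change of -1.49 (SE 0.13, adjusted p = 0.00158). Ass1 (argininosuccinate synthase, which rebuilds arginine) and Oat (ornithine aminotransferase) were called lower in SSMs of ndLN, with log2 fold changes of -1.68 (SE 0.24) and -1.03 (SE 0.16). Oat was again lower in tdLN, at -0.97 (SE 0.16). Sat1, which acetylates polyamines for export, was called higher in SSMs from tdLN than from ndLN by 1.42 (SE 0.21). The median log2 fold change of the list was 0.02 between subsets in ndLN, and in tdLN 0.08, or -0.07 when genes at the floor are set to their bound.

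Among the secreted products of alternative activation, Chil3 was called between subsets in both nodes and Retnla in neither. Chil3 (chr3:106147554-106167564, minus strand) was at 5247 and 3363 normalized counts in SSMs from ndLN, 10904 and 5641 in SSMs from tdLN, 193 and 367 in MSMs from ndLN, and 346 and 120 in MSMs from tdLN. The lowest SSM library was far above the highest MSM library. The log2 fold change was 3.82 (SE 0.46, adjusted p = 0.000914 in edgeR) in ndLN and 5.17 (SE 0.48, adjusted p = 0.000443) in tdLN. It was the member whose calls in both nodes held in all 8 fits that left out 1 library, with log2 fold changes from 3.04, without pool 1 of MSMs from ndLN, to 4.94, without pool 2 of that group, in ndLN. In tdLN they ran from 4.72, without pool 2 of MSMs from tdLN, to 5.86, without pool 1 of that group. Both pools were higher in tdLN than ndLN within SSMs, by 0.91 (SE 0.39, adjusted p = 0.214), a difference that was not called.

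Chil3 shares sequence with close relatives. Of its 50-base exon windows 26.9% occur in another gene, mostly the paralog Chil4 and Gm6522, and reads there could be lost or split. Chil4 was at 0 in all libraries but 1 of MSMs from ndLN, at 5.21 normalized counts. The neutrophil and monocyte marker sums given above stood in the same order of groups as Chil3 in SSMs, 18691 to 27604 in ndLN and 57588 to 62276 in tdLN, and were lowest in MSMs. In SSMs most of that sum was Ccr2 and Ly6c2, at means of 12385 and 8512 in ndLN and 28478 and 23557 in tdLN. S100a8 and S100a9 were at 509 and 555 in ndLN and 1683 and 1729 in tdLN, and Elane and Cxcr2 at no more than 43.7 and 34.4. The sinus macrophage marker sums stood in the same order, and the part of either in Chil3 was not tested.

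Retnla (chr16:48842551-48844461, plus strand) spread widely between pools. Its normalized counts were 2873 and 1199 in SSMs from ndLN, 420 and 1456 in SSMs from tdLN, 6.37 and 248 in MSMs from ndLN, and 903 and 1470 in MSMs from tdLN. Only MSMs from ndLN stood apart, below all other libraries. The SSMs were higher than MSMs in ndLN by 4.29 on the log2 scale (SE 0.96), with an adjusted p of 0.0157 in edgeR, which was not called. In tdLN the difference was -0.44 (SE 0.77, adjusted p = 0.779). Within MSMs it was higher in tdLN in both pools, by 3.29 (SE 0.93), again not called, with an adjusted p of 0.232, and by 2.42 without pool 1 and 7.30 without pool 2 of MSMs from ndLN. The difference between the node effects in SSMs and MSMs was -4.74 (SE 1.25, adjusted p = 0.157 for the interaction), and ran from -8.60 without pool 2 of MSMs from ndLN to -3.30 without pool 1 of SSMs from ndLN. In ndLN the log2 difference between subsets was 2.74 without pool 1 of SSMs and 8.20 without pool 2 of MSMs, so its size rests on single libraries. That difference was called with DESeq2 (adjusted p = 0.00227), on lane 3 (0.00848) or lane 4 (0.00907) alone in edgeR, and without pool 2 of SSMs from ndLN (0.00502).

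Of 24 other genes of alternative activation 23 were tested, and calls went both ways. In ndLN 6 were called higher and 5 lower in SSMs (median log2 fold change 0.33), and in tdLN 5 and 2 (0.66, or 0.71 with the gene at the floor set to its bound). The mean cut-off was passed by 20 of the 23 and by 9988 of all genes, of which 1267 were called higher and 1277 lower in ndLN. For all genes the counts in tdLN were 1089 and 743, and between nodes in SSMs 418 and 221. F13a1, a clotting factor chain made by macrophages and monocytes, was at 2232 ± 651 against 85.5 ± 85.4 normalized counts in ndLN (log2 fold change 4.82, SE 0.36) and also higher in tdLN, by 4.86 (SE 0.33). The ndLN value was 6.10 without pool 1 and 4.24 without pool 2 of MSMs from ndLN. Msr1, a scavenger receptor, was higher in SSMs by 2.40 (SE 0.23) in ndLN and 3.40 (SE 0.22) in tdLN. On the MSM side stood Egr2, a transcription factor, at -2.19 (SE 0.13), and the lectin gene Mgl2, at -3.13 (SE 0.35), both in ndLN. In tdLN the chemokine genes Ccl22 and Ccl17, which dendritic cells also express, were lower in SSMs, at -3.21 (SE 0.29) and -3.52 (SE 0.43), the latter -2.92 without pool 1 and -4.50 without pool 2 of SSMs from tdLN. Between nodes, 8 genes of the list were called higher and 1 lower in SSMs from tdLN (median 0.42). Egr2 rose from 1522 ± 200 to 6228 ± 311 normalized counts (log2 fold change 2.04, SE 0.13, adjusted p = 0.00110 in edgeR). Ccl24, an eosinophil-attracting chemokine, was at 13.4 ± 4.28 in SSMs from ndLN and at 791 ± 806 in SSMs from tdLN, a call with a wide spread between the tdLN pools. Its log2 fold change of 5.68 became 4.82 without pool 2 of SSMs from ndLN and 4.55 without pool 2 of SSMs from tdLN, and the call was lost without any 1 of the 4 SSM libraries. Socs1, an inhibitor of cytokine signalling, fell by 1.63 on the log2 scale (SE 0.24). Leaving out 1 library gave 5 to 11 calls on this list in ndLN, with 5 without pool 1 of SSMs, and 3 to 6 in tdLN, with 3 without pool 2 of MSMs. Between nodes in SSMs it gave 2 and 0 without pools 1 and 2 of SSMs from ndLN, 1 and 0 without pools 1 and 2 of SSMs from tdLN, and 7 to 10 without an MSM library.

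The classical activation list of 22 genes was tested whole, and it too was divided. In ndLN 7 genes were called higher and 6 lower in SSMs, with a median log2 fold change of -0.20, and in tdLN 4 and 3, with a median of 0.48. The mean cut-off was passed by 21 of the 22 and by 9988 of all genes, of which 1267 were called higher and 1277 lower in ndLN. For all genes the counts in tdLN were 1089 and 743, and between nodes in SSMs 418 and 221. The costimulatory gene Cd86 was at 2444 ± 405 normalized counts in SSMs and 21166 ± 1977 in MSMs of ndLN (log2 fold change -3.12, SE 0.14, adjusted p = 1.91e-05 in edgeR), and it was lower in SSMs of tdLN by less, at -1.28 (SE 0.13). Irf5, a transcription factor of inflammatory macrophages, was at -2.27 (SE 0.13) in ndLN and -1.08 (SE 0.13) in tdLN. Ifngr1, a chain of the interferon-gamma receptor, was higher in SSMs by 1.04 (SE 0.12) and 1.01 (SE 0.12). Ccl5, a chemokine that T and NK cells also express, was higher in SSMs of ndLN by 2.15 (SE 0.29), or 1.56 without pool 1 of SSMs from ndLN, and the formyl peptide receptor gene Fpr2 was higher in SSMs of tdLN by 4.73 (SE 0.40). Between nodes 4 genes were called higher in SSMs from tdLN and none lower, with a median of 0.53. Cd38 rose from 342 ± 14.4 to 1644 ± 213 normalized counts (log2 fold change 2.26, SE 0.17), and the cytokine gene Il1b rose from 34902 ± 13864 to 142093 ± 18006 (2.06, SE 0.19). Leaving out 1 library gave 3 to 10 calls on this list in ndLN, with 3 and 4 without pools 1 and 2 of MSMs from ndLN, and 0 to 10 in tdLN, with 0 without pool 2 of SSMs and 2 or 3 without each of the other tdLN libraries. Between nodes in SSMs it gave 0 without either pool of SSMs from tdLN and 1 to 4 without each of the others.

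**Figure D3:**
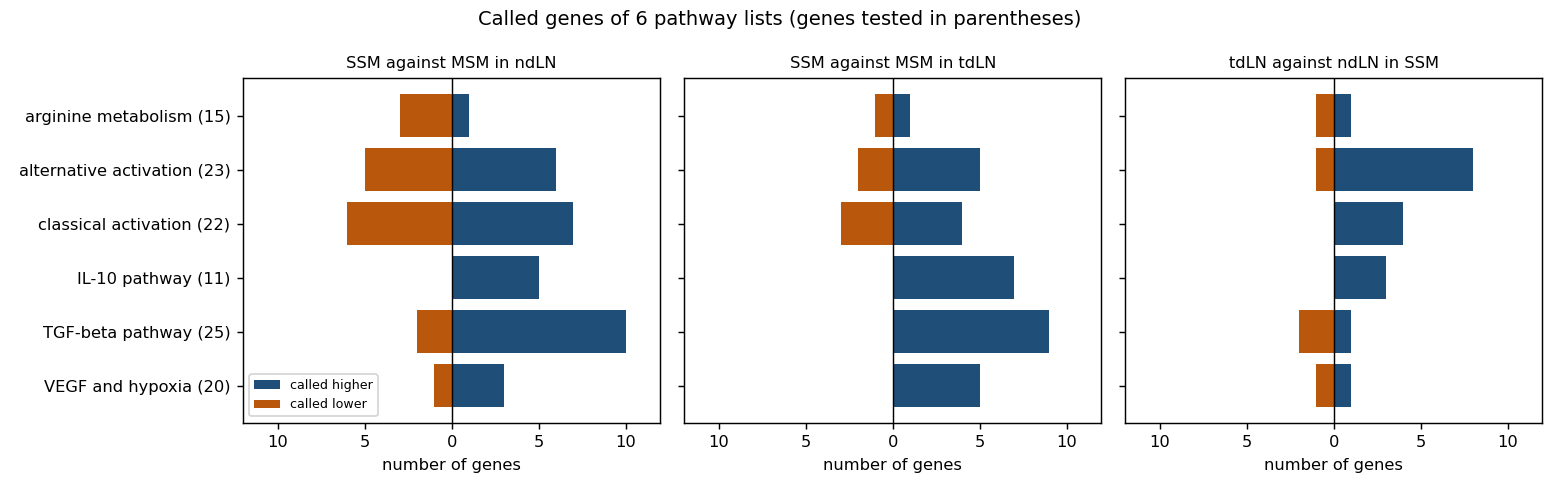
Number of genes called higher (right) or lower (left) in the group named first, for 6 pathway lists in 3 comparisons. TGF-beta and IL-10 lists lie mostly to the right between subsets, and the activation lists lie on both sides in ndLN.

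Il10 (chr1:131019845-131024974, plus strand) was low in every group. Its normalized counts were 42.8 and 105 in SSMs from ndLN, 134 and 139 in SSMs from tdLN, 45.7 and 33.2 in MSMs from ndLN, and 92 and 128 in MSMs from tdLN. In both subsets each pool was higher in tdLN than in ndLN, while the subsets overlapped in ndLN. The log2 fold change between nodes was 0.93 (SE 0.39, adjusted p = 0.211 in edgeR) in SSMs and 1.49 (SE 0.48, adjusted p = 0.280) in MSMs, and neither passed. Between subsets it was 0.88 (SE 0.50, adjusted p = 0.252) in ndLN and 0.32 (SE 0.38, adjusted p = 0.655) in tdLN.

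The receptor gene Il10ra (chr9:45253837-45269149, minus strand) was abundant, and its order of subsets changed with the node. Its normalized counts were 4482 and 3514 in SSMs from ndLN, 8460 and 8284 in SSMs from tdLN, 7781 and 6332 in MSMs from ndLN, and 6218 and 5516 in MSMs from tdLN. In ndLN both SSM libraries lay below both MSM libraries, and in tdLN both lay above. In ndLN the log2 fold change of SSMs against MSMs was -0.82 (SE 0.13, adjusted p = 0.00335 in edgeR), which was called, and in tdLN it was 0.52 (SE 0.13, adjusted p = 0.0322), which was not. Il10ra rose in SSMs from ndLN to tdLN by 1.08 on the log2 scale (SE 0.13, adjusted p = 0.00385 in edgeR). In MSMs both pools were lower in tdLN, with a log2 fold change of -0.26 (SE 0.13, adjusted p = 0.477). The rise in SSMs kept a log2 fold change of 0.95 to 1.18 without each library in turn, but its adjusted p then ran from 0.0117 to 0.0796 and the call was lost in all 8 fits. The ndLN call between subsets was lost in 7 of 8, all but that without pool 1 of SSMs from ndLN, with adjusted p up to 0.0346.

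All 11 other genes of the IL-10 pathway were tested, and those called were higher in SSMs. In ndLN 5 of the 11 were called and in tdLN 7. The mean cut-off was passed by all 11 and by 9988 of all genes, of which 1267 were called higher and 1277 lower in ndLN. For all genes the counts in tdLN were 1089 and 743, and between nodes in SSMs 418 and 221. Bcl3, a nuclear regulator that IL-10 induces, was higher by 1.35 (SE 0.15) in ndLN, and Maf, a transcription factor that drives Il10, was at 69 ± 68.9 normalized counts in MSMs and 1127 ± 119 in SSMs (log2 fold change 4.02, SE 0.46, adjusted p = 0.000713 in edgeR). The value for Maf was 3.25 without pool 1 and 5.80 without pool 2 of MSMs from ndLN. In tdLN the leading genes were Socs3, the feedback inhibitor downstream of STAT3, higher by 1.41 (SE 0.12), and Prdm1, a transcriptional repressor, higher by 2.05 (SE 0.20). Within SSMs 3 were called higher in tdLN, among them Prdm1 by 1.63 (SE 0.19) and Il1rn, the IL-1 receptor antagonist, by 1.67 (SE 0.22). The median log2 fold change of the list was 0.89 in ndLN, 1.09 in tdLN and 0.19 between nodes in SSMs. Leaving out 1 library gave 2 to 4 calls in ndLN, with 2 without either pool of MSMs from ndLN. In tdLN it gave 0 to 2 without each of the 4 tdLN libraries and 7 without each of the others, and between nodes in SSMs 2 without either pool of MSMs from ndLN and 0 without each of the others.

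Of the TGF-beta pair, Tgfb1 was called between subsets in both nodes and Tgfbi in tdLN alone. Tgfb1 (chr7:25687002-25705077, plus strand) was at 6317 and 4468 normalized counts in SSMs from ndLN, 6155 and 5849 in SSMs from tdLN, 2694 and 2956 in MSMs from ndLN, and 2551 and 2559 in MSMs from tdLN. The subsets did not overlap, and the nodes overlapped within SSMs. SSMs exceeded MSMs by 0.92 on the log2 scale (SE 0.17, adjusted p = 0.00716 in edgeR) in ndLN and by 1.23 (SE 0.17, adjusted p = 0.00261) in tdLN. Between nodes the log2 fold change was 0.16 (SE 0.17, adjusted p = 0.633) in SSMs and -0.15 (SE 0.17, adjusted p = 0.793) in MSMs. The ndLN call was lost in 7 of 8 fits that left out 1 library, all but that without pool 2 of SSMs from ndLN, with adjusted p up to 0.0735, and the tdLN call without any 1 of the 4 tdLN libraries (0.0303 to 0.0397). The log2 fold changes stayed between 0.65 and 1.17 in ndLN and between 1.16 and 1.31 in tdLN.

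Tgfbi (chr13:56609523-56639562, plus strand) set SSMs from tdLN apart from all other groups. Its normalized counts were 8103 and 4210 in SSMs from ndLN, 41548 and 27996 in SSMs from tdLN, 8245 and 8364 in MSMs from ndLN, and 12363 and 9182 in MSMs from tdLN. The lower of the SSM libraries from tdLN was above every library of the other 3 groups. The rise in SSMs from ndLN to tdLN was 2.53 on the log2 scale (SE 0.22, adjusted p = 0.00161 in edgeR), which is 5.76-fold. In MSMs the node difference was 0.34 (SE 0.21, adjusted p = 0.570). SSMs exceeded MSMs in tdLN by 1.68 (SE 0.21, adjusted p = 0.00149 in edgeR), whereas in ndLN the log2 fold change was -0.51 (SE 0.21, adjusted p = 0.125). The node call was lost without pool 2 of SSMs from ndLN (adjusted p = 0.0151) and without pool 1 or 2 of SSMs from tdLN (0.0382 and 0.0353). The tdLN call between subsets was lost without any 1 of the 4 tdLN libraries, with adjusted p between 0.0201 and 0.0268. The sums of the neutrophil and monocyte markers and of the sinus macrophage markers were also highest in SSMs from tdLN, the latter with Csf1r, the receptor of the macrophage growth factor CSF1, at 14144 ± 2153 normalized counts in SSMs from ndLN and 37213 ± 7654 in SSMs from tdLN.

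The test of the difference between the node effects gave 2.19 on the log2 scale for Tgfbi (SE 0.29, adjusted p = 0.0244 in edgeR) and 1.34 for Il10ra (SE 0.18, adjusted p = 0.0263), in each case with the higher node effect in SSMs. At the cut-off of 0.01 no member was called, where 0.0379% of all genes were. Of the 10 members 4 had an unadjusted p under 0.05 in this test, and DESeq2 called 2, Tgfbi and Il10ra.

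**Figure D4:**
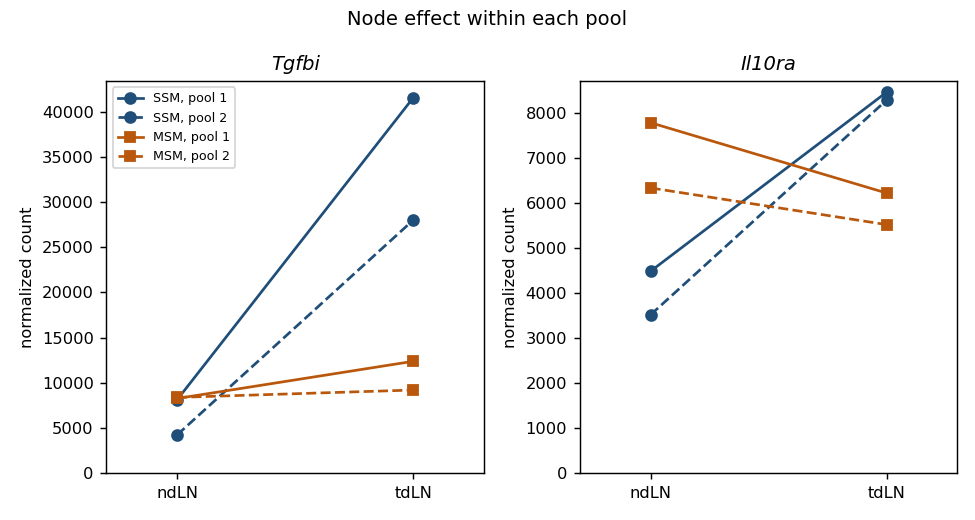
Normalized counts of Tgfbi and Il10ra in ndLN and tdLN, with a line for each pool of SSMs and MSMs. Both SSM lines rise in both genes, and the MSM lines of Il10ra fall.

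The TGF-beta list of 25 other genes had 10 called higher and 2 lower in SSMs of ndLN, and 9 higher and none lower in tdLN. The mean cut-off was passed by 18 of the 25 and by 9988 of all genes, of which 1267 were called higher and 1277 lower in ndLN. For all genes the counts in tdLN were 1089 and 743, and between nodes in SSMs 418 and 221. Furin, the protease that cleaves the TGF-beta precursor, was at 16639 ± 710 normalized counts in SSMs and 3416 ± 424 in MSMs of ndLN (log2 fold change 2.29, SE 0.13, adjusted p = 3.47e-05 in edgeR), and was higher in tdLN by 1.55 (SE 0.13). Thbs1, thrombospondin 1, which can activate latent TGF-beta, was higher in SSMs by 3.46 (SE 0.24) and 4.03 (SE 0.24). Lrrc32, which encodes GARP, a cell surface anchor of latent TGF-beta, was at 112 ± 25.4 in SSMs against 2285 ± 8.96 in MSMs of ndLN (-4.34, SE 0.25), and Skil, a repressor of SMAD signalling, was at -0.87 (SE 0.14). Within SSMs, Nrros, another anchor of latent TGF-beta, was called higher in tdLN by 1.07 (SE 0.13), while Furin and Ski, a SMAD corepressor, were called lower, at -1.06 (SE 0.12) and -0.97 (SE 0.15). The median of the list was 1.50 in ndLN, or 1.21 with the gene at the floor set to its bound, 0.87 in tdLN, or 0.93 likewise, and -0.38 between nodes in SSMs. Leaving out 1 library gave 6 to 10 calls in ndLN, with 6 without either pool of MSMs from ndLN, and in tdLN 2 to 4 without each of the tdLN libraries and 7 to 10 without each of the others. Between nodes in SSMs it gave 3 without either pool of MSMs from ndLN and 0 without each of the others.

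Vegfa (chr17:46016993-46032369, minus strand) was the most abundant member in SSMs from ndLN per length, at 5010 normalized counts per kb of exon. Its normalized counts were 20066 and 22874 in SSMs from ndLN, 12574 and 10244 in SSMs from tdLN, 3055 and 3916 in MSMs from ndLN, and 3395 and 1862 in MSMs from tdLN. The SSM libraries from ndLN were highest, those from tdLN next, and all MSM libraries lowest, without overlap between these 3 levels. SSMs exceeded MSMs by 2.62 on the log2 scale (SE 0.28, adjusted p = 0.000535 in edgeR) in ndLN, which is 6.14-fold, and by 2.13 (SE 0.28, adjusted p = 0.00180) in tdLN. In SSMs both pools were lower in tdLN, at -0.92 (SE 0.27), with an adjusted p of 0.0756 in edgeR that did not pass and 0.00414 in DESeq2. The ndLN call was lost without pool 1 of MSMs from ndLN (adjusted p = 0.0106). The tdLN call was lost without pool 1 of SSMs (0.0296), pool 2 of SSMs (0.0176) or pool 2 of MSMs (0.0128) from tdLN. The log2 fold change in tdLN was 1.71 without pool 2 of MSMs from tdLN and 2.66 without pool 1 of that group. The marker sum of mast cells and basophils, 40717 to 61857 in SSMs from ndLN and 6077 to 13718 in SSMs from tdLN, was also higher in ndLN within SSMs. Of those 9 markers Cpa3 and Kit were called lower in SSMs from tdLN than from ndLN, at -2.69 and -2.61 on the log2 scale, and Mcpt8, a basophil protease, was called higher, from a mean of 62.3 to 500.1 (log2 fold change 3.06, adjusted p = 0.00470 in edgeR). Also higher in ndLN within SSMs were the ILC2 sums (35486 to 44291 against 13743 to 15930) and the T cell sums (34639 to 39887 against 16944 to 17720). The dendritic cell (33097 to 49528 against 19232 to 26612) and lymphatic endothelial sums (1623 to 1845 against 1156 to 1248) were so too. Most of the dendritic cell sum in SSMs was Ccr7, at means of 35123 in ndLN and 16946 in tdLN. The 1 gene of that list called between nodes, Dpp4, was higher in tdLN, at 3707 against 1736. Sinus macrophage, neutrophil and monocyte, and B cell sums were higher in tdLN. The median log2 fold changes of the endothelial and B cell lists, 0.51 and -0.42, went against the direction of their sums. The part of these cells in the Vegfa values was not tested.

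Of 21 other genes of VEGF and hypoxia signalling 20 were tested, with 3 called higher and 1 lower in SSMs of ndLN and 5 higher and none lower in tdLN. The mean cut-off was passed by 18 of the 20 and by 9988 of all genes, of which 1267 were called higher and 1277 lower in ndLN. For all genes the counts in tdLN were 1089 and 743, and between nodes in SSMs 418 and 221. Egln3, an oxygen sensor that hypoxia-inducible factors induce, was at 1538 ± 324 normalized counts in SSMs and 57.8 ± 2.66 in MSMs of ndLN (log2 fold change 4.73, SE 0.24, adjusted p = 2.76e-05 in edgeR) and at 503 ± 11.2 and 17.3 ± 3.61 in tdLN. Like Vegfa it was lower in SSMs from tdLN, and here the difference was called, at -1.60 (SE 0.19, adjusted p = 0.00331). Epas1, which encodes HIF-2 alpha, was higher in SSMs of ndLN by 4.51 (SE 0.50), or by 3.74 without pool 1 and 7.16 without pool 2 of MSMs from ndLN. Hif1a, which encodes HIF-1 alpha, was higher in SSMs of tdLN by 1.34 (SE 0.18). Car9, a carbonic anhydrase induced by hypoxia, was lower in SSMs of ndLN at -2.71 (SE 0.33). Kdr, the gene of VEGF receptor 2, rose in SSMs from 138 ± 108 in ndLN to 773 ± 151 in tdLN (2.57, SE 0.38), or by 3.40 without pool 1 of SSMs from ndLN, and this call was lost in all 8 fits that left out 1 library. The median log2 fold change of the list was 0.32 in ndLN, 0.60 in tdLN and -0.16 between nodes in SSMs. Without 1 library, 2 or 3 genes of the list were called in ndLN, with 2 without pool 1 of MSMs from ndLN, and in tdLN 1 without each of the tdLN libraries and 5 without each of the others. Between nodes in SSMs 1 was called without either pool of MSMs from ndLN and 0 without each of the others.

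Counted together, the 6 lists hold 119 genes, of which 116 were tested. In SSMs against MSMs 32 were called higher and 17 lower in ndLN, and 31 higher and 6 lower in tdLN. In SSMs between nodes 18 were called higher and 5 lower in tdLN. Beside these stand 6.01% of all genes called higher and 6.06% lower in ndLN, 5.16% and 3.52% in tdLN, and 1.98% and 1.05% between nodes in SSMs. The lists hold more abundant genes than the table as a whole, since 98 of the 116 had a mean over 100 normalized counts, where 9988 of the 21085 genes tested did. Without 1 library, 21 to 40 were called in ndLN, the fewest without pool 1 of MSMs from ndLN. In tdLN the total was 9 to 15 without each of the tdLN libraries and 33 to 41 without each of the others. Between nodes in SSMs it was 6 and 1 without pools 1 and 2 of SSMs from ndLN, 1 and 0 without pools 1 and 2 of SSMs from tdLN, 10 without either pool of MSMs from tdLN and 21 without either pool of MSMs from ndLN. Of the genes named from the lists, the calls of 12 of 20 in ndLN, 6 of 16 in tdLN and 0 of 14 between nodes in SSMs held in all 8 fits. None was called between nodes in MSMs in edgeR, where 46 had an unadjusted p under 0.05 and 4 an adjusted p under 0.05. Among the members in MSMs the count was also 0, with 2 (Retnla and Il10) at an unadjusted p under 0.05 in edgeR and 0 called by DESeq2.

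Per length the order of the members differed between groups. In SSMs from ndLN Vegfa (5010 normalized counts per kb of exon) led, followed by Retnla (3399), Chil3 (2638), Tgfbi (1633), Il10ra (1143) and Tgfb1 (1070). In SSMs from tdLN Tgfbi (9221) led, followed by Chil3 (5069), Vegfa (2663), Il10ra (2393), Retnla (1567), Tgfb1 (1190) and Arg2 (784). MSMs held Tgfbi and Il10ra highest in ndLN, at 2202 and 2017 per kb, and Tgfbi and Retnla highest in tdLN, at 2857 and 1981. Nos2 was the lowest or next to lowest in every group, at no more than 5.05 per kb. Neighbours such as Il10ra and Tgfb1 in SSMs from ndLN differed by less than their spread over pools.

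Over the 8 libraries, the genes whose log2 CPM followed each member most closely are given as a description, since all points share libraries and group differences. Cysltr1, a leukotriene receptor, followed Chil3 with a Pearson r of 0.995, then Sorl1 (0.993) and Slc16a3 (0.992). For Tgfbi they were Rap1a, a small GTPase (0.996), Nfam1 (0.989) and Gpalpp1 (0.989). Vegfa was followed by Arntl, a circadian transcription factor (0.998), Tmem154 (0.994) and Ltb, lymphotoxin beta (0.994). Tgfb1 had Emp3 (0.994), Smpdl3a (0.992) and P2ry10b (0.989), and Arg2 had Adprm (0.991), AI839979 (0.988) and Tbc1d2b (0.986). The values were lower for Il10ra, with Zfp36 (0.986) and Ccdc115 (0.980), and for Retnla, with Ddit4 (0.970), Sdf2 (0.942) and Dip2b (0.931).

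**Figure D5:**
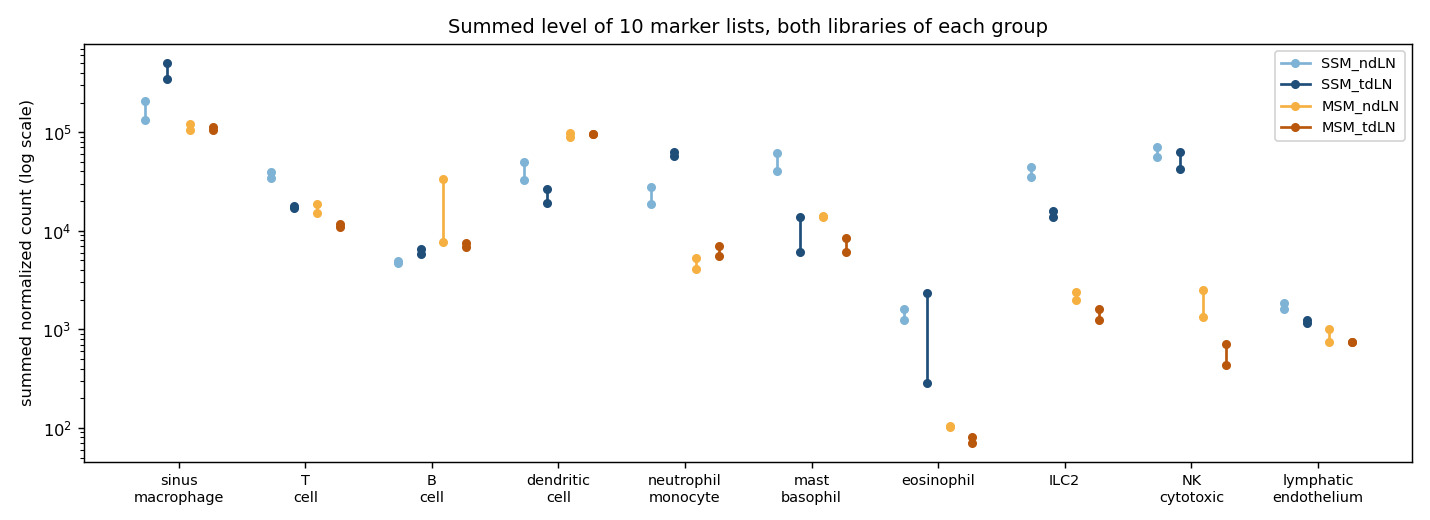
Summed normalized counts (log axis) of 10 marker lists, where each bar joins the 2 libraries of a group. Neutrophil and monocyte markers are highest in SSMs from tdLN, mast cell and basophil markers in SSMs from ndLN, and dendritic cell markers in MSMs.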

How the data were processed

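SMART-Seq libraries of 8 sorted samples were sequenced on 2 lanes each. Per the submitters' processing notes and the study's methods, the authors used bcl2fastq 2.20.0.422, trimmed with Trimmomatic 0.36, aligned to GRCm38 (mm10) with STAR 2.5.3a and deposited raw counts per gene, not normalized. The strand setting is not given in the sources used here. All 16 columns were mapped to samples, and the 2 rows of added sequences, with 6 counts (1.66e-06% of all), were left out. Gene symbols and positions came from GENCODE M21, which names 55240 of the 55421 gene rows.

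Lane counts of each library agreed within sampling noise (chi-square per degree of freedom at most 1.015, against at least 29.3 between libraries of a group) and were added up. Libraries held 42972328 to 48130352 reads, so a floor of 3 counts is 0.0623 to 0.0698 CPM and covers counting error only. Genes with a total of 10 counts or more and a count above 0 in 2 or more of the 16 lane-level samples were normalized by TMM (factors 0.902 to 1.15) in edgeR 4.0.16 under R 4.3.3 and fitted with group and pool by the quasi-likelihood method that does not use the legacy setting, because the legacy setting called more unchanged genes in each set of simulated data. Calls needed an adjusted p under 0.01 and a mean over 100 normalized counts. Pool is in the model because the study's methods say that every pool gave all 4 groups. They count 4 pools where the labels number 2, and the labels' numbers were used. The label of the SSM library from tdLN used here as pool 1 carries no number, so its place in pool 1 is inferred. Deviations of same-numbered libraries from their group means correlated between -0.186 and 0.15 over 10000 genes.

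All 10 members are named, and from each list up to 2 called genes per direction and comparison, those with the lowest p. For members with a mean over 100, genes were ranked by Pearson correlation and the leading 3 are given, except for a gene that is not reported here. The members and lists were chosen with earlier results of these data known. Alternatives were DESeq2 1.42.0 (Wald test and size factors), no pool term, other filters and cut-offs, single lanes, fits of the 2 groups compared alone, and each library left out. Sequences are from RefSeq on GRCm38.p6. Windows for Arg1, Arg2, Nos2, Il10 and Il10ra were not used here.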

Additional observations from a re-analysis of the deposited data

Results flagged for a closer look

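The difference between tdLN and ndLN in Tgfbi, in which drainage and node site cannot be told apart, differed between the subsets by 2.19 on the log2 scale (interaction, adjusted p = 0.0244 in edgeR), with a rise in SSMs in both pools. The same test gave 1.34 for Il10ra (adjusted p = 0.0263), which was higher in tdLN in both SSM pools and lower in both MSM pools. Both passed at 0.05 and neither at 0.01. Without each library in turn, the difference lay between 1.84 and 2.51 for Tgfbi and between 1.22 and 1.45 for Il10ra, with adjusted p up to 0.221.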

How the results depend on the processing

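With 2 libraries a group, calls often changed between settings, while directions rarely did. Settings that changed only a cut-off kept the main log2 fold changes, and several others refitted the same 8 libraries, so directions could hardly change there. Of 738 alternative values of the members' log2 fold changes, 658 kept direction and side of the cut-off, 57 lost a call, 16 gained one and 7 changed sign. Of 950 values of the named pathway genes, 154 lost a call and 796 did not. All of these were calls in the main fit. Of the members' differences only 5 between subsets in ndLN, 5 in tdLN and 2 between nodes in SSMs were, and the rest had no call to lose. The 57 and the 154 therefore cannot be compared as shares of 738 and 950. The number of genes called, 2544 and 1832 between subsets in ndLN and tdLN, 639 and 5 between nodes in SSMs and MSMs and 8 for the interaction, became 3884, 3020, 1832, 93 and 215 at an adjusted p under 0.05, where 2 members were called for the interaction. DESeq2's Wald test called 3026 in tdLN, 1973 in SSMs, 503 in MSMs and 706 for the interaction, 2 members among the last. With only the groups compared in the fit, 954 genes and 2 members (Chil3 and Vegfa) were called in ndLN, with adjusted p of 0.0765 for Arg2, 0.0494 for Tgfb1 and 0.0484 for Il10ra, and 0 genes and 0 members between nodes in SSMs, where 4796 genes and 6 members had an unadjusted p under 0.05 and Tgfbi and Il10ra an adjusted p of 0.0259 and 0.0462. In MSMs that fit called 0 genes, with 2730 at an unadjusted p under 0.05. In tdLN it called 1836 genes and 5 members. The cause of these differences was not tested. Node calls in MSMs also became 14 with the filterByExpr function, 24 and 17 from lane 3 and lane 4 alone, 23 with the legacy fit (chosen after seeing the data), and interaction calls 25 and 29 from the lanes and 4 with DESeq2 size factors, which shifted the median of all genes by at most 0.059.

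Without the replicate block, node calls in MSMs became 9, other counts stayed within 1.5 times (2808, 2018, 796 and 11), and of the members' calls only Arg2 in ndLN was lost (adjusted p = 0.0156). That call was also lost without the filter (0.0115), on lane 4 (0.0119) and with the legacy fit (0.0183). Leaving out 1 library gave 1083 to 2021 and 507 to 1867 genes between subsets in ndLN and tdLN, 2 to 345 between nodes in SSMs, 0 to 3 in MSMs and 0 for the interaction. Members called were then 2 to 4, 1 to 5 and 0 to 1 in the first 3 comparisons. The 7 sign changes were all in such fits and in differences that were not called: Retnla between nodes in SSMs (-2.63 to 0.17) and between subsets in tdLN (-1.28 to 0.12), Tgfb1 between nodes in SSMs (-0.084 to 0.44) and MSMs (-0.30 to 0.022), and in MSMs Chil3 (-1.28 to 0.62) and Vegfa (-0.94 to 0.0068).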
